A study of Mus musculus with 9 samples.

Results

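Processed pseudogenes are copies of an mRNA that were reverse-transcribed and inserted elsewhere in the genome, and mouse annotation names them by the parent's symbol followed by -ps. The members described here are the 309 rows of the deposited expression table whose gene name ends in -ps with an optional number and whose mean over all 9 libraries was at least 1 FPKM (mapped fragments scaled to transcript length and to library size, a level per length). They were thus chosen by their name and their mean level, and the groups compared below entered that mean. They come from 1376 rows with such names among 48640 rows in all. The other 1067 such rows had a mean under 1 FPKM and include 786 listed at 0 in all libraries. A row with the parent's name, the text before -ps, was present for 259 members and 136 parents, and 50 members had none.

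YAP colonies were non-pluripotent colonies, marked by mCherry, from mouse embryonic fibroblast cultures that received a lentiviral vector for Yes-associated protein (YAP), the co-activator at the end of the Hippo pathway. They were kept on a feeder layer in embryonic stem cell medium with doxycycline at 1 ug/mL. YAP-culture iPSCs were induced pluripotent stem cells with the Oct4:GFP reporter from YAP cultures. Their titles say that YAP overexpression was lost, while another label and the column headings mark them as YAP-positive, and which of these holds was not settled. Control iPSCs carried Oct4:GFP and came from fibroblasts that received an empty vector. Both iPSC groups grew on a feeder layer, reprogramming took place with doxycycline at 1 ug/mL, and the culture lasted 75 days. Each group had 3 libraries, made with a stranded mRNA kit. The labels do not say that the replicates were separate cultures, and p-values then cover the spread among these libraries, which may be technical.

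FPKM totals were 509321 to 634471 per library, and read depth is unknown. The 7 pluripotent-cell markers checked summed to 421 to 501 FPKM in YAP colonies, where 3 of them averaged under 1 FPKM, to 5708 to 6627 FPKM in YAP-culture iPSCs and to 4779 to 5904 FPKM in control iPSCs. The 10 fibroblast markers summed to 714 to 1040 FPKM in YAP colonies, 79.2 to 110 FPKM in YAP-culture iPSCs and 97.4 to 125 FPKM in control iPSCs, and the part of fibroblasts or feeder cells in the results was not tested. In bulk RNA, fewer cells of a type and less RNA per cell cannot be told apart. One library stood apart from its label. Across the tested rows, replicate 3 of the YAP-culture iPSCs had a median Pearson correlation of 0.962 with the control iPSCs and 0.939 with the other YAP-culture iPSCs, and the counts of members called are also given without it.

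A processed pseudogene has no introns, usually lacks the parent's promoter and can remain nearly identical to the parent's mRNA. Ribosomal protein genes, which are transcribed at a high level in every cell, have left many such copies in mammalian genomes. Short reads from an identical stretch fit the parent and every copy, so in FPKM the reads of a copy and of its parent cannot be told apart there. Each member is therefore set beside its parent and the sequence both share. Unprocessed pseudogenes arise by duplication of a gene with its introns and often lie in gene clusters.

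Of 306 members found in the GENCODE M21 annotation of mouse build GRCm38 (mm10), 262 were annotated as processed pseudogenes, 35 as unprocessed or unitary and 9 as protein coding. Of the processed members, 257 had 1 exon. The members lay on 21 chromosomes and 203 overlapped no other annotated gene. Another 33 lay in an intron of a gene on the same strand and 56 in an intron of a gene on the opposite strand. Transcripts of 256 pairs could be aligned, with a median identity of 98.6% (81.2% to 100%). In 257 pairs compared by stretches of 50 bases, a median of 51.0% of the member's stretches occurred unchanged in the parent. The parent by name was also the coding gene that shared the most stretches in 251 of these. Among 172 pairs aligned without a gap, 159 members held no stop codon ahead of the parent's own in the parent's reading frame.

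The members held 10.1% to 10.7% of the FPKM of a library in YAP colonies, 9.80% to 10.8% in YAP-culture iPSCs and 10.04% to 11.3% in control iPSCs, so the groups overlapped. The 152 members with a ribosomal protein parent held 7.84% to 9.15% of the FPKM of a library. The 136 parents together held 2.92% to 3.75%. Of 95 members with a mean of at least 100 FPKM, 74 were ribosomal, and of 18 with at least 1000 FPKM, 16 were. Per length, 124 of the 259 members with a parent row had a higher mean than the parent, 26 of them at least 10 times as high. In 58 pairs the parent had at least 10 times the mean of the member.

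The highest member was Tpt1-ps3 (chr6:99877816-99878334), a copy without a difference over 519 bases from the transcript of Tpt1, which encodes the translationally controlled tumour protein. It had 2611, 2674 and 2569 FPKM in YAP colonies, 2174, 2373 and 2249 FPKM in YAP-culture iPSCs and 2309.7, 2146 and 2117 FPKM in control iPSCs. Tpt1 itself had 366 to 449 FPKM in YAP colonies, 330.3 to 415 FPKM in YAP-culture iPSCs and 335 to 355 FPKM in control iPSCs. The copy was listed several times above its parent in each library, and neither row was called in any comparison. The next 5 members by mean level were ribosomal, and none of them was called either. Rps23-ps1 averaged 1957 ± 90.3 FPKM in YAP colonies, 2277 ± 318 FPKM in YAP-culture iPSCs and 2428 ± 203 FPKM in control iPSCs (SD, n = 3 each), and its parent Rps23, a protein of the small ribosomal subunit, 128 FPKM over all libraries. Rpl36a-ps2 averaged 1914 FPKM over all libraries and Rpl36a 34.9 FPKM. For Rps24-ps3 and Rps24 the means were 1846 and 517 FPKM, for Rpl39-ps and Rpl39 1796 and 196 FPKM, and for Rpl38-ps2 and Rpl38 1721 and 63.1 FPKM.

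The level listed for a copy relative to its parent went with shared sequence. Of 23 pairs aligned without a difference, 22 had the higher mean in the member, and Hmgn2-ps1 was the exception. Over the 23 the median ratio of member to parent was 8.54 (0.422 to 114). In 59 pairs with both rows tested and under 30% of stretches shared, the member had a median of 0.0698 times the parent's FPKM. In 32 pairs with 90% or more shared, the median was 6.13 times. Across 252 pairs Spearman's rho between the share and the ratio was 0.71. The pairs share libraries and often a parent, so these values are a description.

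**Figure D1:**
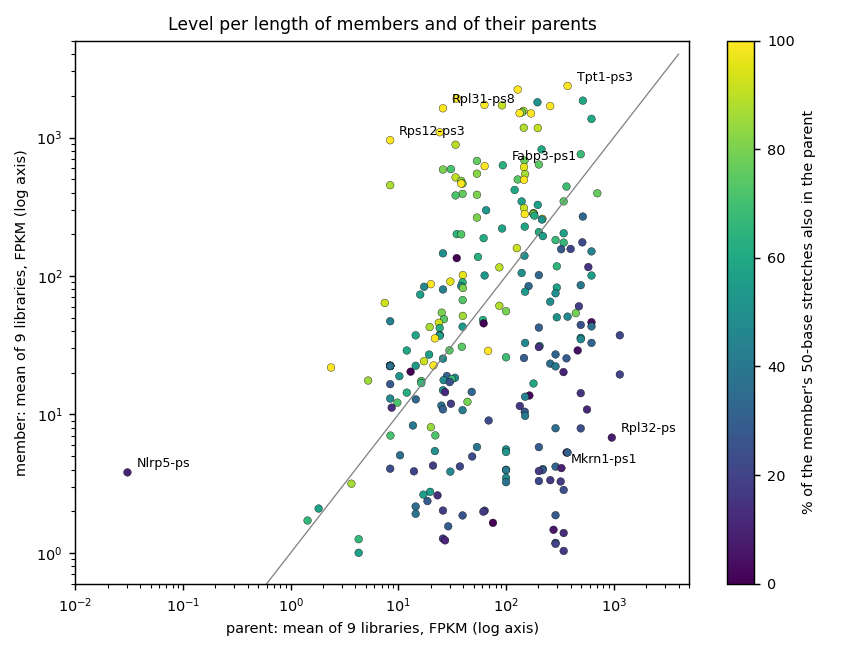
Mean FPKM over the 9 libraries of each member (vertical, log axis) against that of its parent (horizontal, log axis), coloured by the share of the member's 50-base stretches that also occur in the parent. The line marks equal levels, and 3 pairs whose parent is listed at 0 in all libraries are left out. Pairs without compared stretches are left out as well (257 of 259 pairs were compared). Points with a high share lie mostly above the line, with Rps12-ps3 at 956 FPKM against 8.40 FPKM for Rps12, and points with a low share mostly below it.

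Rps12, a protein of the small subunit, had the most members of any parent, 15, of which 10 lie on chromosome X, with means between 4.06 and 956 FPKM. The start of the coding part of its highest copy, of a copy on chromosome X and of the parent is shown because it marks how little separates them (coding bases 1 to 100 of the GENCODE M21 transcripts, 5′ to 3′). Capitals mark bases that differ between Rps12-ps11 and Rps12.
Rps12-ps3: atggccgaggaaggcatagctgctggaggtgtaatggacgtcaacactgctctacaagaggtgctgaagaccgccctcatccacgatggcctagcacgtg
Rps12-ps11: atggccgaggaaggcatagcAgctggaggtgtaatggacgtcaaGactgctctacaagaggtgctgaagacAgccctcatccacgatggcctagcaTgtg
Rps12: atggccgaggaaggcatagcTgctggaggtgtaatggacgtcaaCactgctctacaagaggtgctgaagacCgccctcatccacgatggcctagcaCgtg
Rps12-ps3, annotated as protein coding on chromosome 19, did not differ from Rps12 over 494 bases. It averaged 784 ± 120.3 FPKM in YAP colonies, 773 ± 253 FPKM in YAP-culture iPSCs and 1311 ± 122 FPKM in control iPSCs (SD, n = 3 each). Rps12 averaged 8.96 ± 1.03 FPKM in YAP colonies, 7.31 ± 1.82 FPKM in YAP-culture iPSCs and 8.94 ± 0.958 FPKM in control iPSCs (SD, n = 3 each). Rps12-ps11 differed from Rps12 at 8 coding positions (T21A, C45G, C72A, C97T, C135T, C216T, G235A and C253T, with the parent's base first and positions counted from 1 at the start of the coding part). It shares all 50-base stretches with Rps12-ps12, Rps12-ps13, Rps12-ps14 and Rps12-ps15, and these 5 rows had means of 22.3 to 22.4 FPKM and differed by at most 2.86% of their mean in any library. They therefore cannot be counted as separate measurements. Likewise Rps12-ps6, Rps12-ps17 and Rps12-ps18 had means of 22.3 to 22.5 FPKM, and Rpl35a-ps2, Rpl35a-ps3, Rpl35a-ps4 and Rpl35a-ps6 of 281 to 284 FPKM. Rpl10-ps1 and Rpl10-ps3, of unequal length, share all stretches of the shorter copy and had means of 495 and 611 FPKM.

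A smaller share of members than of all tested rows was called between YAP colonies and iPSCs. Against YAP-culture iPSCs, 15 of 309 members rose in YAP colonies (4.85%), where 15.8% of all 13808 tested rows rose, and 36 fell (11.7%), where 14.5% of all rows fell, so that 30.3% of all rows were called in this comparison. Against control iPSCs, 9 members rose (2.91%), where 14.9% of all rows rose, and 35 fell (11.3%), where 17.0% of all rows fell and 31.8% were called. A row was called, and is said to have risen or fallen, at a Benjamini-Hochberg adjusted p below 0.05 in limma with a change of at least 1 in mean log2(FPKM + 1), a scale that understates changes of low rows. The median change of the members was 0.01 against YAP-culture iPSCs and -0.15 against control iPSCs, beside 0.02 and -0.07 for all tested rows. Members low in 1 group passed the level rule only through the others, so these counts describe the members and test nothing. Both comparisons use the same YAP colony libraries. Without replicate 3 of the YAP-culture iPSCs, 24 members rose in YAP colonies against the other 2, and 7 of the 10 added ones were ribosomal. Of all 309 members, 152 are ribosomal. With 1 library left out, 4072 to 4421 of all tested rows were called against YAP-culture iPSCs, and 4184 with all libraries.

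Most members with a called parent had a change of the same sign. Against YAP-culture iPSCs, 23 members had 1 of 12 parents that rose in YAP colonies. Of these members, 22 had a positive change and 7 were called. Another 16 had 1 of 15 parents that fell, and 12 of these members had a negative change and 10 were called. Against control iPSCs, 20 members had 1 of 9 parents that rose, and 17 of them had a positive change and 6 were called. Another 23 had 1 of 19 parents that fell, and 21 of them had a negative change and 14 were called. Member and parent were thus called the same way in 17 pairs against YAP-culture iPSCs and in 20 against control iPSCs, of 259. In each comparison, 10 of the members with a parent that rose were copies of Rpl31. Copies also share sequence with the parent and with each other, so these counts are a description and not separate measurements. The member was called where its tested parent was not in 6 pairs in each comparison. Calls were opposite in 2 pairs against YAP-culture iPSCs, Pisd-ps1 and Rpl31-ps15, and in none against control iPSCs. Each of these was lost without certain single libraries, named below, and Ccnb2-ps was also called opposite to its parent without replicate 3 of the YAP-culture iPSCs or of the YAP colonies. The absolute difference between the change of a member and that of its parent had a median of 0.24 and 0.28 on the log2 scale over 252 pairs, and was at least 1 in 10 and 15 of them.

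**Figure D2:**
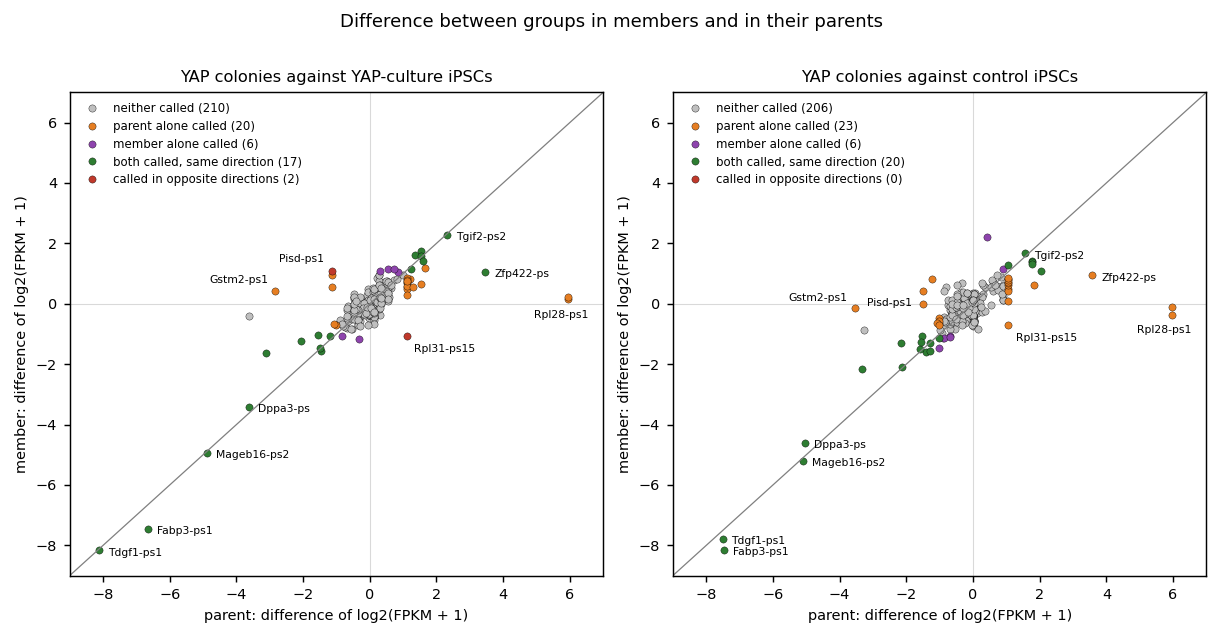
Difference in mean log2(FPKM + 1) between YAP colonies and YAP-culture iPSCs (left) or control iPSCs (right) for each member (vertical) and its parent (horizontal). Colours give which of the rows was called, and the line marks equal differences. Fabp3-ps1, Tdgf1-ps1, Dppa3-ps and Mageb16-ps2 lie near the line at the lower left, while Rpl28-ps1, Gstm2-ps1 and Zfp422-ps lie away from it.

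Fabp3-ps1 and Tdgf1-ps1, whose parents are in the list of pluripotent-cell genes given below, had the largest changes of all members in both comparisons. Fabp3-ps1 (chr10:86731754-86732409), Tdgf1-ps1 (chr16:3730510-3731025) and Dppa3-ps (chrX:37625647-37626097) are copies of Fabp3, a fatty acid binding protein, of Tdgf1 (Cripto), a co-receptor of Nodal signalling, and of Dppa3 (Stella), a maternal and germ-cell factor. Coding stretches of 100 bases are shown because they hold the bases by which reads of a copy and of its parent can differ, which are in capitals. They start at coding base 235 for Fabp3, 414 for Tdgf1 and 67 for Dppa3.
Fabp3-ps1: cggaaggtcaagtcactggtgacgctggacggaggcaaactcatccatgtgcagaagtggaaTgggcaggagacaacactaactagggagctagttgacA
Fabp3: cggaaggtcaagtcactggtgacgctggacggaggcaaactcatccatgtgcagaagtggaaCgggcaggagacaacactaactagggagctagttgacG
Tdgf1-ps1: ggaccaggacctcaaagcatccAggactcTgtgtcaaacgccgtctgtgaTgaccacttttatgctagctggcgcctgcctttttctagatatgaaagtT
Tdgf1: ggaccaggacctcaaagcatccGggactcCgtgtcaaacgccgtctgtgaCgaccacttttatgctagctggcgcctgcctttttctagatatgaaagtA
Dppa3-ps: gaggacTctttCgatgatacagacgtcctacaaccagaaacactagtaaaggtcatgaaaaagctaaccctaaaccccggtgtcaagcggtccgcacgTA
Dppa3: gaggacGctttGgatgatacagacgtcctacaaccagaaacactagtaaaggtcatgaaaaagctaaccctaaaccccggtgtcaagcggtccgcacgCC
Over the whole coding part Fabp3-ps1 differed from its parent at 3 positions (A40T, C297T and G334A), Tdgf1-ps1 at 7 and Dppa3-ps at 8. The share of 50-base stretches found unchanged in the parent was 64.0% for Fabp3-ps1, 50.9% for Tdgf1-ps1 and 33.6% for Dppa3-ps.

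Fabp3-ps1 had 3.72, 2.94 and 2.70 FPKM in YAP colonies, 657, 642 and 869 FPKM in YAP-culture iPSCs and 1272, 1000.01 and 1223 FPKM in control iPSCs. Its parent Fabp3 was listed at 0 in each YAP colony library and had 99.7, 70.8 and 139 FPKM in YAP-culture iPSCs and 197, 151 and 183 FPKM in control iPSCs. The copy was low in each YAP colony library and high in each iPSC library, without overlap, and was listed above its parent in every library. Genes that every cell uses are also listed at exactly 0 in these data (Rpl28 and Cox20, described below), so a listed 0 is not read as absence of the transcript. The copy fell by 7.45 ± 0.16 on the log2 scale against YAP-culture iPSCs (SE, limma adjusted p = 7.52e-09) and by 8.14 ± 0.16 against control iPSCs (adjusted p = 5.37e-09), and Fabp3, with its zeros as listed, was called lower in both comparisons. Fabp3-ps1 lies on the opposite strand within an intron of Ttc41, which averaged 0.785 FPKM.

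Tdgf1-ps1 had 0.390, 0.353 and 0.768 FPKM in YAP colonies, 344, 449 and 507 FPKM in YAP-culture iPSCs and 313, 419.7 and 267 FPKM in control iPSCs. Tdgf1 had 0.765, 0.376 and 0.0731 FPKM in YAP colonies, 342, 495 and 329 FPKM in YAP-culture iPSCs and 215, 351 and 209 FPKM in control iPSCs. Copy and parent had levels of the same order in every group, and both separated YAP colonies from the iPSCs without overlap. Tdgf1-ps1 fell by 8.17 ± 0.21 and 7.78 ± 0.21 (SE, limma adjusted p = 1.34e-08 and 1.51e-08) against YAP-culture and control iPSCs, and Tdgf1 fell by 8.12 and 7.51.

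Dppa3-ps had 0.241, 0.218 and 0 FPKM in YAP colonies, 14.4, 9.30 and 10.7 FPKM in YAP-culture iPSCs and 29.9, 22.4 and 28.5 FPKM in control iPSCs. Dppa3 was listed at 0 in each YAP colony library and had 12.2, 8.44 and 13.9 FPKM in YAP-culture iPSCs and 37.6, 25.5 and 33.2 FPKM in control iPSCs. In both rows the 3 groups were apart, with YAP-culture iPSCs in between. The copy fell by 3.42 ± 0.18 and 4.60 ± 0.18 in YAP colonies (SE, limma adjusted p = 5.83e-07 and 9.82e-08). In a list of 18 pluripotent-cell genes that includes these parents, 17 fell in YAP colonies in both comparisons and 1 was not called. Of all tested rows, 14.5% and 17.0% fell. The genes were picked with earlier results of these data known and the colonies are labelled non-pluripotent, so this count tests nothing.

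Mageb16-ps2 copies Mageb16, a gene of the MAGE family, without a difference over 1093 bases. It had 0, 0.0872 and 0 FPKM in YAP colonies, 31.6, 33.4 and 27.2 FPKM in YAP-culture iPSCs and 39.8, 35.1 and 35.9 FPKM in control iPSCs. Mageb16 had 0, 0.0710 and 0 FPKM in YAP colonies, 32.9, 31.3 and 24.2 FPKM in YAP-culture iPSCs and 36.1, 33.5 and 32.8 FPKM in control iPSCs. The rows were nearly the same, down to the single YAP colony library above 0. Every 50-base stretch of the copy is in the parent, so the values of the rows cannot be told apart. Mageb16-ps2 fell by 4.94 and 5.20 (limma adjusted p = 7.52e-09 and 5.80e-09).

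**Figure D3:**
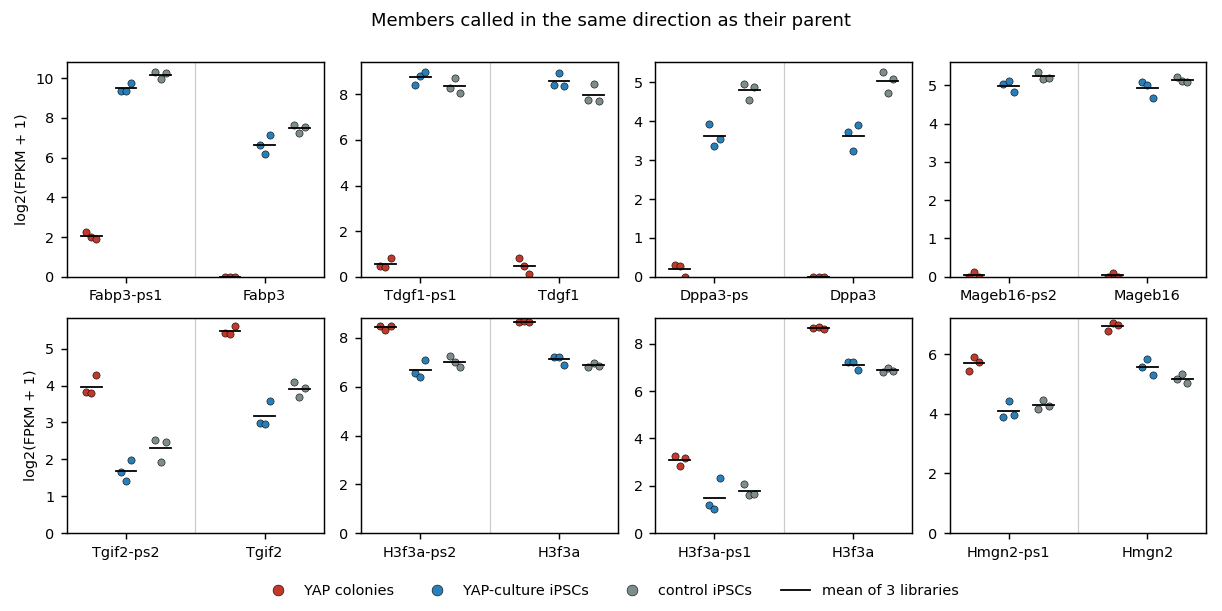
Values of log2(FPKM + 1) in each library for 8 members and, on the right of each panel, for their parents, with YAP colonies in red, YAP-culture iPSCs in blue and control iPSCs in grey. Points are libraries and bars are means of 3. In the upper row copies and parents are lower in YAP colonies than in every iPSC library, and in the lower row they are higher.

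Copies of H3f3a, Hmgn2 and Hmgb1 made up 4 of the 15 members that rose against YAP-culture iPSCs and 4 of the 9 that rose against control iPSCs. There were 12 members named for Hmgb1, H3f3a, Hmgn2 or Npm3. Of these, H3f3a-ps1, H3f3a-ps2, Hmgn2-ps1 and Hmgb1-ps9 rose in both comparisons and none fell, where 15.8% and 14.9% of all tested rows rose. H3f3a-ps1 and H3f3a-ps2 share a parent, so the 4 are copies of 3 genes. Copies of other chromatin protein genes were not counted here, among them Rybp-ps, which fell in both comparisons. H3f3a encodes a histone H3 variant that is laid down outside of replication. H3f3a-ps2 (chr16:91114189-91114599) differs from it at 5 coding bases, of which 4 fall in the stretch shown, the one with the most differences (coding bases 286 to 385, differing bases in capitals).
H3f3a-ps2: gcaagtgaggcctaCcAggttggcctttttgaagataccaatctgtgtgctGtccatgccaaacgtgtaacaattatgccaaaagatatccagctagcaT
H3f3a: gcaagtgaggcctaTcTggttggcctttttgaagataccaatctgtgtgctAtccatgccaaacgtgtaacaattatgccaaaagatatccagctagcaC
H3f3a-ps2 had 362, 323 and 357 FPKM in YAP colonies, 94.5, 83.6 and 136 FPKM in YAP-culture iPSCs and 151, 129 and 109.5 FPKM in control iPSCs. H3f3a averaged 404 ± 10.1 FPKM in YAP colonies, 139 ± 19.0 FPKM in YAP-culture iPSCs and 117 ± 7.28 FPKM in control iPSCs (SD, n = 3 each). Each YAP colony library was above each iPSC library in both rows. The copy rose by 1.75 ± 0.19 and 1.43 ± 0.19 (SE, limma adjusted p = 5.49e-05 and 0.000191), and H3f3a by 1.54 and 1.78. H3f3a-ps1, on chromosome X, was far lower, with 8.63, 6.11 and 7.92 FPKM in YAP colonies, 1.28, 1.00 and 3.99 FPKM in YAP-culture iPSCs and 3.18, 2.02 and 2.13 FPKM in control iPSCs. It rose by 1.58 and 1.32 (limma adjusted p = 0.00265 and 0.00690).

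Hmgn2-ps1 copies Hmgn2, a nucleosome-binding protein, without a difference over 279 bases. It had 41.9, 58.9 and 52.9 FPKM in YAP colonies, 13.9, 20.7 and 14.5 FPKM in YAP-culture iPSCs and 16.9, 21.003 and 18.3 FPKM in control iPSCs, and no iPSC library reached a YAP colony library. It rose by 1.60 ± 0.18 and 1.40 ± 0.18 (SE, limma adjusted p = 7.12e-05 and 0.000161), and Hmgn2 by 1.37 and 1.77. Hmgb1 encodes an abundant DNA-bending protein and has 8 members. Of these Hmgb1-ps9 rose by 1.10 and 1.15 (limma adjusted p = 0.000676 and 0.000504), with 6.03 ± 1.28 FPKM in YAP colonies, 2.29 ± 0.663 FPKM in YAP-culture iPSCs and 2.13 ± 0.153 FPKM in control iPSCs (SD, n = 3 each), and its first call was lost without replicate 2 of the YAP colonies (0.98). Hmgb1 itself was not called (0.32 and 0.89), nor were its other copies.

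Few ribosomal protein copies were called. Of all tested rows, 15.8% rose and 14.5% fell against YAP-culture iPSCs, and 14.9% rose and 17.0% fell against control iPSCs. Of 152 ribosomal copies, Rpl18-ps1 rose and Rpl22-ps1 and Rpl31-ps15 fell against YAP-culture iPSCs. Against control iPSCs, Rpl32-ps rose and Rpl22-ps1, Rpl27-ps1 and Rpl27-ps2 fell. The median change of the 152 was 0.02 against YAP-culture iPSCs and -0.22 against control iPSCs. Of 48 ribosomal protein rows that are parents of members, 3 rose and 1 fell against YAP-culture iPSCs, and 2 rose and 2 fell against control iPSCs. Of 48 tested ribosomal protein rows that are not parents, 3 rose and 5 fell, and 4 rose and 8 fell. Rpl22 encodes a protein of the large subunit. Its copy Rpl22-ps1, with 15.1% of stretches shared, averaged 67.2 ± 0.968 FPKM in YAP colonies, 139 ± 23.1 FPKM in YAP-culture iPSCs and 141 ± 18.8 FPKM in control iPSCs (SD, n = 3 each). The copy fell by 1.03 and 1.06 (limma adjusted p = 0.000282 and 0.000232), and Rpl22 by 1.54 and 1.53. The first call of the copy was lost without replicate 1 (-0.93) or 3 (-0.98) of the YAP-culture iPSCs, and the second without replicate 2 of the control iPSCs (-0.95). That of Rpl18-ps1 was lost without any 1 of 6 libraries (limma adjusted p = 0.0561 to 0.125).

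Rpl31 rose in YAP colonies, with 39.0, 41.0 and 41.8 FPKM in YAP colonies, 16.6, 21.9 and 16.5 FPKM in YAP-culture iPSCs and 19.8, 19.3 and 17.8 FPKM in control iPSCs. Of its 10 copies, 9 had a positive change in both comparisons and none was called higher. Rpl31-ps8, identical to Rpl31 over 378 bases, averaged 2041 ± 220.2 FPKM in YAP colonies, 1396 ± 176 FPKM in YAP-culture iPSCs and 1440.0 ± 123 FPKM in control iPSCs (SD, n = 3 each) and changed by 0.55 and 0.50 on the log2 scale. The exception was Rpl31-ps15 (chr3:37734730-37735104), a low copy with 18.4% of stretches shared. It had 0.611, 1.05 and 1.11 FPKM in YAP colonies, 3.00, 3.49 and 2.51 FPKM in YAP-culture iPSCs and 1.64, 2.58 and 2.21 FPKM in control iPSCs. It fell by 1.06 ± 0.17 against YAP-culture iPSCs (SE, limma adjusted p = 0.000641) where Rpl31 rose by 1.12 (adjusted p = 5.37e-05). Against control iPSCs the copy was not called (-0.71, adjusted p = 0.00613). Its call was lost without replicate 2 of the YAP-culture iPSCs (-0.97) and without replicate 1 of the YAP colonies (-0.94).

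Rpl32-ps had the largest rise against control iPSCs. It had 22.2, 7.64 and 7.43 FPKM in YAP colonies, 6.10, 6.91 and 6.14 FPKM in YAP-culture iPSCs and 1.33, 1.82 and 1.67 FPKM in control iPSCs. The groups did not overlap, and replicate 1 of the YAP colonies stood far above the rest. The same library was highest in Rpl32, with 2269 FPKM, while the other 8 libraries held 608 to 942 FPKM. The copy rose by 2.20 ± 0.34 (SE, limma adjusted p = 0.000548) and by 1.72 without that library, and Rpl32 was not called (0.42, and -0.11 without that library). With all libraries, none of the 15 copies of Rps12 was called in any comparison. Their changes in YAP colonies were -0.19 to 0.96 against YAP-culture iPSCs and -0.75 to 0.36 against control iPSCs. In YAP-culture against control iPSCs all 15 were below 0 (-1.32 to -0.38). Several of these rows cannot be told apart, as described above, so the 15 are not separate measurements. Without replicate 3 of the YAP-culture iPSCs, Rps12-ps19 and Rps12-ps24 were called higher in YAP colonies against the others of that group (1.51 and 1.44), and Rps12-ps3, Rps12-ps19 and Rps12-ps24 lower in YAP-culture against control iPSCs (-1.05, -1.88 and -1.30).

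All 4 members with a parent symbol starting with Ft or Txn fell in both comparisons, where 14.5% and 17.0% of all tested rows fell. These symbols stand for genes of iron storage or redox but do not cover all such genes. Tdpx-ps1, nearest to a peroxiredoxin gene, is not among them and rose against YAP-culture iPSCs, as described below. Ftl1-ps1 and Ftl2-ps share sequence, and Fthl17-ps1, listed at 0 in each YAP colony library, passed the level rule only through the iPSCs, so the 4 are not separate counts. Ftl1-ps1, annotated as protein coding, aligned to the ferritin light chain gene Ftl1 with 99.6% identity. It averaged 139 ± 24.5 FPKM in YAP colonies, 447 ± 239 FPKM in YAP-culture iPSCs and 601 ± 115 FPKM in control iPSCs (SD, n = 3 each). It fell by 1.56 and 2.10 (limma adjusted p = 0.00293 and 0.000516), and Ftl1 by 1.48 and 2.12. Ftl2-ps, without a parent row, shares 71.2% of its stretches with Ftl1-ps1 and fell by 1.64 and 2.51. Txn-ps1 also lacks a parent row and averaged 22.5 ± 6.55 FPKM in YAP colonies, 50.1 ± 11.7 FPKM in YAP-culture iPSCs and 63.3 ± 3.63 FPKM in control iPSCs (SD, n = 3 each). It fell by 1.14 and 1.49, while the thioredoxin gene Txn1, which shares 9.62% of its stretches, was not called (-0.61 and -0.98). The first call of Txn-ps1 was lost without replicate 3 of the YAP colonies (-0.88) or replicate 2 of the YAP-culture iPSCs (-0.96). The fourth, Fthl17-ps1, is described with the X-linked members.

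Of 9 members with a parent symbol starting with Atp5, Cox, Mrp, Ndu or Uqcr, Cox20-ps rose against YAP-culture iPSCs and Mrpl23-ps1 fell against control iPSCs. Of all tested rows, 15.8% rose in the first comparison and 17.0% fell in the second. Copies of other mitochondrial genes, such as Pisd-ps1 and Glud-ps, were not counted among the 9 and are described below. Cox20-ps copies Cox20, an assembly factor of cytochrome c oxidase. It had 10.5, 7.75 and 7.47 FPKM in YAP colonies, 1.77, 2.32 and 3.00 FPKM in YAP-culture iPSCs and 5.29, 3.76 and 4.34 FPKM in control iPSCs, with no overlap between the groups. It rose by 1.51 ± 0.18 against YAP-culture iPSCs (SE, limma adjusted p = 0.000106) and was not called against control iPSCs (0.80, adjusted p = 0.00437). Cox20 itself was listed at 0 in all 9 libraries, as were Dnajc19 and Mrpl48. Their copies had values in every library: Dnajc19-ps averaged 52.2 ± 7.24 FPKM in YAP colonies, 100.2 ± 10.6 FPKM in YAP-culture iPSCs and 94.9 ± 8.48 FPKM in control iPSCs (SD, n = 3 each), and Mrpl48-ps averaged 18.1 ± 1.03 FPKM in YAP colonies, 24.1 ± 3.32 FPKM in YAP-culture iPSCs and 24.0 ± 2.46 FPKM in control iPSCs (SD, n = 3 each). Neither was called, except Dnajc19-ps against YAP-culture iPSCs without replicate 3 of that group (-1.01) or replicate 1 of the YAP colonies (-1.01). Of 4 glycolysis members, Pgam1-ps2, identical over 765 bases to the phosphoglycerate mutase gene Pgam1, fell by 1.15 against control iPSCs, and Pgam1 by 1.02. None of the 5 members with a translation factor parent was called in any comparison with all libraries. Eif4a-ps4 was called lower in YAP colonies against YAP-culture iPSCs without replicate 3 of those iPSCs (-1.02) and without replicate 2 of the YAP colonies (-1.01).

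Among other pairs that rose together, Tgif2-ps2 (chr17:40115358-40116068) changed most. Tgif2 is a homeodomain repressor of TGF-beta responses. The copy had 13.1, 12.9 and 18.6 FPKM in YAP colonies, 2.13, 1.67 and 2.99 FPKM in YAP-culture iPSCs and 4.72, 2.78 and 4.59 FPKM in control iPSCs, and Tgif2 had 41.8, 41.2 and 48.3 FPKM in YAP colonies, 6.86, 6.83 and 10.99 FPKM in YAP-culture iPSCs and 16.3, 12.0 and 14.2 FPKM in control iPSCs. Every YAP colony library was above every iPSC library in both rows. The copy rose by 2.29 ± 0.22 and 1.66 ± 0.22 (SE, limma adjusted p = 2.87e-05 and 0.000201), and Tgif2 by 2.30 and 1.57. Ccdc50-ps, which shares 20.4% of its stretches with Ccdc50, averaged 6.91 ± 0.251 FPKM in YAP colonies, 1.99 ± 0.446 FPKM in YAP-culture iPSCs and 2.75 ± 0.248 FPKM in control iPSCs (SD, n = 3 each). It rose by 1.42 and 1.08, and Ccdc50 by 1.59 and 2.04. Akt2-ps rose by 1.15 against YAP-culture iPSCs and Akt2, a kinase of insulin signalling, by 1.22. Stxbp3-ps rose by 1.27 against control iPSCs and Stxbp3, a protein of vesicle fusion, by 1.04.

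Among the pairs that fell together, Mkrn1-ps1 and the E3 ubiquitin ligase gene Mkrn1 differed most in level. Mkrn1 averaged 49.9 ± 10.2 FPKM in YAP colonies, 431 ± 27.5 FPKM in YAP-culture iPSCs and 500.2 ± 35.9 FPKM in control iPSCs (SD, n = 3 each). Its copy, with 9.10% of stretches shared, averaged 0.775 ± 0.111 FPKM in YAP colonies, 4.50 ± 0.785 FPKM in YAP-culture iPSCs and 7.02 ± 0.795 FPKM in control iPSCs (SD, n = 3 each). Mkrn1-ps1 fell by 1.62 and 2.17, and Mkrn1 by 3.10 and 3.32. Rybp-ps, from a gene of a Polycomb complex, fell by 1.45 and 1.60, and Rybp by 1.48 and 1.42. Tpd52-ps fell by 1.22 and 1.30, and Tpd52 by 2.08 and 2.15. Mnd1-ps, from a gene of meiotic recombination, fell by 1.05 and 1.50, and Mnd1 by 1.20 and 1.59. The first call of Mnd1-ps was lost without replicate 1 of the YAP colonies (-0.99) or of the YAP-culture iPSCs (-0.98). Mrto4-ps2, Ccnd3-ps and Krt8-ps were called lower with their parents against control iPSCs.

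The pairs whose ratio of copy to parent differed most between groups showed several patterns. Rpl28-ps1 (chr1:128038569-128038982) is identical to the large subunit gene Rpl28 over 414 bases, and Rpl28-ps3 differs from it at 3 coding bases (C162G, G252A and C307T). Coding bases 153 to 252 of Rpl28-ps3 and Rpl28 are shown because the copies and the parent were listed so differently, with differing bases in capitals.
Rpl28-ps3: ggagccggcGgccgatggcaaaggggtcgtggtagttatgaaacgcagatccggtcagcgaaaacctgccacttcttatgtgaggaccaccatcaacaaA
Rpl28: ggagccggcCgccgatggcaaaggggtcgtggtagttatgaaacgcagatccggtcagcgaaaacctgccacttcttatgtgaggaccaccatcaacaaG
Rpl28-ps1 had 899.7, 1026 and 1109 FPKM in YAP colonies, 766, 720.4 and 1383 FPKM in YAP-culture iPSCs and 1467, 1218 and 1233 FPKM in control iPSCs. Rpl28 had 95.2, 24.0 and 99.0 FPKM in YAP colonies and was listed at 0 in all 6 iPSC libraries. Rpl28-ps3 averaged 37.4 ± 2.37 FPKM in YAP colonies, 33.3 ± 12.2 FPKM in YAP-culture iPSCs and 40.4 ± 2.52 FPKM in control iPSCs (SD, n = 3 each). Neither copy was called (Rpl28-ps1 0.14 and -0.37, Rpl28-ps3 0.22 and -0.11), while Rpl28 was called higher. The log2 ratio of Rpl28-ps1 to its parent, with 1 FPKM added to each, differed by -5.82 between YAP colonies and YAP-culture iPSCs and by -6.33 against control iPSCs. For Rpl28-ps3 the differences were -5.74 and -6.07. An exact two-sided permutation test over 3 against 3 libraries gave p = 0.1 for each, the smallest it can give. The pairs here and in the paragraphs below were named for large differences of this ratio. Groups without overlap always give this p, so it tests nothing. With a parent listed at 0 these ratios depend on the added value and are no bound.

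Gstm2-ps1 (chr5:116632908-116633564) is named for Gstm2, a glutathione S-transferase of the mu class, but is nearer to Gstm1 in sequence. Its alignment to Gstm2 was 85.6% identical over 639 bases and no 50-base stretch was shared, whereas 35.4% of its stretches were in Gstm1. Coding bases 552 to 651 show this. Capitals mark bases that differ between Gstm2-ps1 and Gstm2, and in the Gstm1 line those that differ from Gstm2-ps1.
Gstm2-ps1: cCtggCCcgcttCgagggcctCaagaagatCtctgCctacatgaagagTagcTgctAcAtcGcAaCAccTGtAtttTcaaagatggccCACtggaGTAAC
Gstm2: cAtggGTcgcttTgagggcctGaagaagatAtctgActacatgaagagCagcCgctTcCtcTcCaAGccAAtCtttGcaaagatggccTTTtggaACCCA
Gstm1: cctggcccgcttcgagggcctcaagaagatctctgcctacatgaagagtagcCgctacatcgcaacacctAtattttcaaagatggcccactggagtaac
In these 100 bases the copy differs from Gstm2 at 27 positions and from Gstm1 at 2. Gstm2-ps1 had 24.9, 18.6 and 21.1 FPKM in YAP colonies, 15.9, 13.3 and 17.6 FPKM in YAP-culture iPSCs and 30.01, 19.6 and 22.2 FPKM in control iPSCs. Gstm2 had 1.18, 1.69 and 0.581 FPKM in YAP colonies, 15.4, 10.7 and 16.4 FPKM in YAP-culture iPSCs and 27.8, 20.8 and 22.5 FPKM in control iPSCs. Gstm2 was low in each YAP colony library, and the copy was not. Gstm1 had 45.3, 41.3 and 51.3 FPKM in YAP colonies, 25.5, 24.2 and 47.3 FPKM in YAP-culture iPSCs and 71.4, 54.5 and 58.6 FPKM in control iPSCs. Gstm2 fell by 2.83 and 3.54 (limma adjusted p = 8.18e-06 and 1.92e-06), while neither the copy (0.44 and -0.14) nor Gstm1 (0.56 and -0.41) was called. The log2 ratio of the copy to Gstm2 was higher in YAP colonies by 3.27 and 3.41 (exact two-sided permutation p = 0.1 for each, the smallest possible). As above, that p followed from how the pair was chosen.

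Pisd-ps1 and Pisd were called in opposite directions. Pisd encodes the mitochondrial phosphatidylserine decarboxylase, and Pisd-ps1 is annotated as a transcribed unprocessed pseudogene with 7 exons, so it is not a processed copy. It had 21.8, 17.1 and 20.3 FPKM in YAP colonies, 7.54, 6.55 and 13.02 FPKM in YAP-culture iPSCs and 16.6, 12.0 and 15.5 FPKM in control iPSCs. Pisd had 13.3, 12.0 and 13.3 FPKM in YAP colonies, 26.5, 24.6 and 39.8 FPKM in YAP-culture iPSCs and 41.7, 38.1 and 35.2 FPKM in control iPSCs. YAP colonies were above both iPSC groups in the pseudogene and below both in Pisd. Pisd-ps1 rose by 1.09 ± 0.23 against YAP-culture iPSCs (SE, limma adjusted p = 0.00316) while Pisd fell by 1.14 (adjusted p = 0.000409). The call of Pisd-ps1 was lost without replicate 2 of the YAP-culture iPSCs (0.91) and that of Pisd without replicate 3 (-0.94). Against control iPSCs Pisd fell by 1.50 and Pisd-ps1 was not called (0.41, adjusted p = 0.159). Its log2 ratio to Pisd was higher in YAP colonies by 2.24 and 1.91 (exact two-sided permutation p = 0.1 for each, the smallest possible), and that of Rpl31-ps15 to Rpl31 differed by -2.18 against YAP-culture iPSCs (p = 0.1 by the same test).

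The last pairs by this rule were Zfp422-ps and Ccnb2-ps. Zfp422, a zinc finger gene, had 118, 65.9 and 45.7 FPKM in YAP colonies, 6.36, 5.39 and 4.91 FPKM in YAP-culture iPSCs and 4.97, 5.18 and 4.89 FPKM in control iPSCs. Zfp422-ps, annotated as unprocessed, had 3.62, 2.55 and 2.32 FPKM in YAP colonies, 1.27, 0.613 and 0.631 FPKM in YAP-culture iPSCs and 1.51, 0.870 and 0.625 FPKM in control iPSCs. Both rows were higher in each YAP colony library. The pseudogene rose by 1.06 against YAP-culture iPSCs where Zfp422 rose by 3.46, and it was not called against control iPSCs (0.95), except without replicate 1 of that group (1.12) or replicate 3 of the YAP colonies (1.04). Its call against YAP-culture iPSCs was lost without replicate 1 of the YAP colonies (0.92) and without replicate 2 (0.98) or 3 (0.99) of the YAP-culture iPSCs. Zfp422-ps overlaps an exon of Zfp955b on the opposite strand, and whether the counting used strand is not given in the sources used here. Ccnb2-ps shares no 50-base stretch with the mitotic cyclin gene Ccnb2. It had 3.49, 2.96 and 2.03 FPKM in YAP colonies, 0.827, 0.490 and 1.65 FPKM in YAP-culture iPSCs and 1.02, 1.27 and 1.10 FPKM in control iPSCs, higher in each YAP colony library but not called (0.97 and 0.83), while Ccnb2 fell by 1.14 and 1.24. Ccnb2-ps was called higher against YAP-culture iPSCs, opposite to Ccnb2, without replicate 3 of that group (1.20, limma adjusted p = 0.000843) and without replicate 3 of the YAP colonies (1.13, adjusted p = 0.00504). The log2 ratios differed by -2.40 and -2.64 for Zfp422-ps and by 2.07 against control iPSCs for Ccnb2-ps (exact two-sided permutation p = 0.1 for each, the smallest possible). As above, these p-values followed from how the pairs were chosen.

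**Figure D4:**
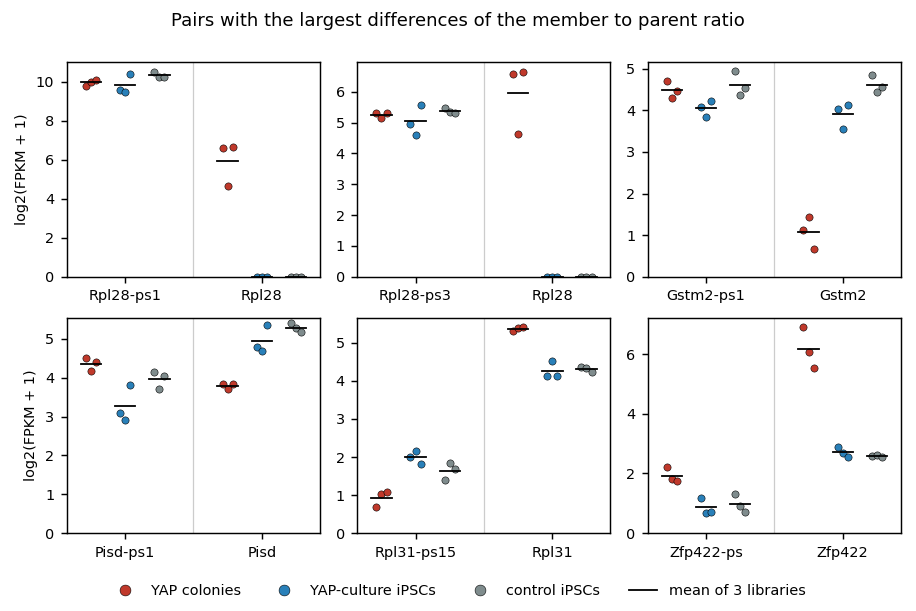
Values of log2(FPKM + 1) in each library for 6 members with the largest differences of the ratio to the parent and, on the right of each panel, for the parents, with YAP colonies in red, YAP-culture iPSCs in blue and control iPSCs in grey. Points are libraries and bars are means of 3. Rpl28 sits at 0 in all iPSC libraries beside high Rpl28-ps1, and Pisd-ps1 is high in YAP colonies where Pisd is low.

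Of the 50 members without a row of the parent's name, 2 rose and 23 fell in YAP colonies against YAP-culture iPSCs, where 15.8% of all tested rows rose and 14.5% fell. Against control iPSCs 1 rose and 17 fell, where 14.9% of all rows rose and 17.0% fell. The Obox4 rows near 1 FPKM, which passed the level rule only through the iPSCs, made up 10 of the 23 and 4 of the 17. For several of them the coding gene with the most shared stretches is a relative under another symbol that was called the same way. Hsp25-ps1 shares 86.6% of its stretches with Hspb1, a small heat shock protein. It had 19.08, 27.3 and 23.8 FPKM in YAP colonies, 88.5, 75.5 and 217 FPKM in YAP-culture iPSCs and 281, 211 and 236 FPKM in control iPSCs, and Hspb1 averaged 10.98 ± 1.75 FPKM in YAP colonies, 76.1 ± 42.5 FPKM in YAP-culture iPSCs and 134 ± 26.0 FPKM in control iPSCs (SD, n = 3 each). Among the YAP-culture iPSCs, replicate 3 was the highest and lay within the range of the control iPSCs in both rows. The copy fell by 2.24 and 3.33 (limma adjusted p = 0.000583 and 4.90e-05), and Hspb1 by 2.56 and 3.49. Ak3l2-ps, with 78.2% of stretches in the adenylate kinase gene Ak4, fell by 2.60 and 3.22, and Ak4 by 2.78 and 3.25. Glud-ps fell by 1.18 and 1.06, and the glutamate dehydrogenase gene Glud1 by 1.20 and 1.01, the second call of Glud-ps being lost without replicate 1 of the YAP colonies (-0.97).

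The members of this kind that rose were Tdpx-ps1 and Crry-ps. Tdpx-ps1 shares 25.6% of its stretches with the peroxiredoxin gene Prdx2. It rose by 1.35 against YAP-culture iPSCs, and Prdx2 by 1.12, and neither was called against control iPSCs (0.43 and 0.62). Crry-ps had 4.42, 4.82 and 4.61 FPKM in YAP colonies, 1.39, 1.28 and 1.27 FPKM in YAP-culture iPSCs and 1.12, 1.31 and 1.07 FPKM in control iPSCs, the YAP colonies lying above every iPSC library. It rose by 1.28 and 1.37 (limma adjusted p = 8.35e-06 and 5.06e-06), and the complement regulator gene Cr1l, with 36.4% of its stretches, by 1.82 and 1.96.

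Most of the others that fell belong to gene clusters. Znf41-ps (chr4:145825237-145829942) is annotated as unprocessed and shares 83.1% of its stretches with the zinc finger gene Zfp991. It had 0.792, 1.74 and 0.752 FPKM in YAP colonies, 45.0, 50.1 and 32.2 FPKM in YAP-culture iPSCs and 19.3, 22.4 and 17.6 FPKM in control iPSCs, and the 3 groups did not overlap. It fell by 4.38 ± 0.22 and 3.33 ± 0.22 in YAP colonies (SE, limma adjusted p = 4.33e-07 and 2.18e-06), and Zfp991 by 4.41 and 3.49. H2-M6-ps, of the major histocompatibility complex, had 0.230, 0.559 and 0.301 FPKM in YAP colonies, 8.44, 7.58 and 13.05 FPKM in YAP-culture iPSCs and 12.3, 13.8 and 10.5 FPKM in control iPSCs. It fell by 2.94 and 3.28 (limma adjusted p = 2.77e-06 and 1.39e-06). Fthl17-ps1 and Rhox7-ps2 on chromosome X were listed at 0 in each YAP colony library and called lower in both comparisons. Fthl17-ps1 had 6.55, 4.48 and 6.88 FPKM in YAP-culture iPSCs and 3.72, 3.97 and 4.56 FPKM in control iPSCs, and Rhox7-ps2 had 1.74, 2.96 and 2.94 FPKM in YAP-culture iPSCs and 3.71, 4.65 and 3.36 FPKM in control iPSCs. The 10 Obox4 pseudogenes, from the oocyte homeobox cluster on chromosome 7, had means of 1.03 to 1.54 FPKM. All 10 were called lower against YAP-culture iPSCs and 4 against control iPSCs, and 5 of them share all their 50-base stretches.

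By annotated kind, 13 of 262 processed members rose in YAP colonies and 16 fell against YAP-culture iPSCs (4.96% and 6.11%), and 9 rose and 21 fell against control iPSCs (3.44% and 8.02%). Of all tested rows, 15.8% rose and 14.5% fell in the first comparison, and 14.9% rose and 17.0% fell in the second. Of 35 unprocessed or unitary members, 2 rose and 18 fell against YAP-culture iPSCs, and 0 rose and 12 fell against control iPSCs. These include the 10 Obox4 rows and other rows near 1 FPKM that passed the level rule only through the iPSCs, so their count is in part fixed by how members were chosen.

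**Figure D5:**
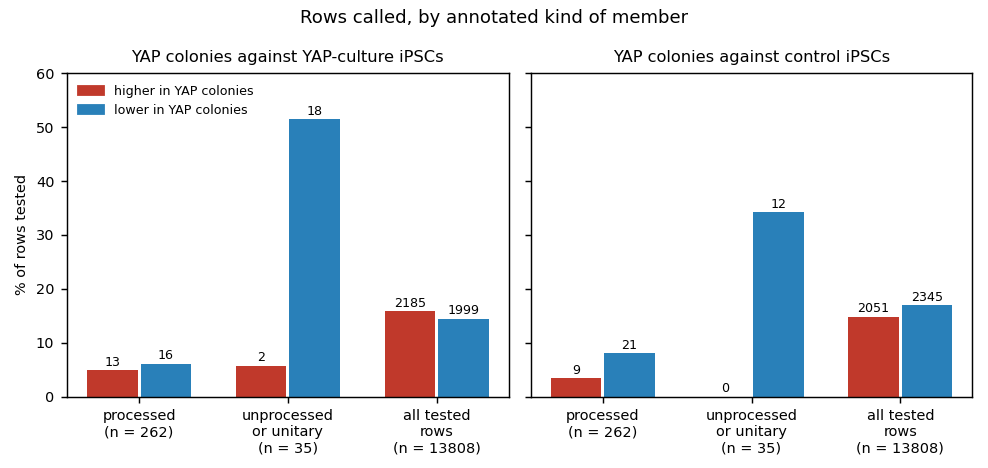
Share of rows called higher (red) and lower (blue) in YAP colonies, in percent of the rows tested, for members annotated as processed, members annotated as unprocessed or unitary, and all tested rows, against YAP-culture iPSCs (left) and control iPSCs (right). Numbers over the bars are rows called, and the axis starts at 0. In the left panel 13 and 16 of 262 processed members were called, 2 and 18 of 35 unprocessed or unitary ones, and 2185 and 1999 of all 13808 tested rows.

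Between the iPSC groups few members were called. In YAP-culture iPSCs against control iPSCs, 2 of 309 members rose (0.647%), where 0.507% of all tested rows rose, and 1 fell (0.324%), where 0.884% fell and 1.39% were called. Rpl32-ps rose by 1.50 ± 0.34 and Znf41-ps by 1.05 ± 0.22 (SE, limma adjusted p = 0.0484 and 0.0374). Dppa3-ps fell by 1.18 ± 0.18 (SE, limma adjusted p = 0.0150) and Dppa3 by 1.41 (adjusted p = 0.0115), the one pair called together. These calls were lost in most or some fits with 1 library left out. The call of Dppa3-ps was lost without replicate 1 or 3 of the control iPSCs (limma adjusted p = 0.0828 and 0.0866), as was that of Dppa3. The call of Rpl32-ps was lost without any 1 of 7 libraries (limma adjusted p = 0.0690 to 0.168), the exceptions being replicate 1 of the YAP colonies and replicate 3 of the YAP-culture iPSCs. That of Znf41-ps was lost without any 1 of 7 (limma adjusted p = 0.0555 to 0.145), the exceptions being replicate 2 of the YAP colonies and replicate 3 of the YAP-culture iPSCs. Without replicate 3 of the YAP-culture iPSCs, which lay nearest to the control iPSCs, 3 members rose and 26 fell, and 1048 of all tested rows were called, against 192 with it. Of the 25 members that fell only then, 16 were ribosomal, where 152 of all 309 members are ribosomal. Rps19-ps1 and Rps19-ps2 are both among them and cannot be counted as separate measurements.

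The members just above the threshold were Alms1-ps1, Xlr3d-ps and Obox4-ps19, with means of 1.00, 1.02 and 1.03 FPKM. Just below it were Rps12-ps26, Fthl17-ps2 and Atp5l2-ps, with 0.9996, 0.987 and 0.968 FPKM. Xlr3d-ps and Fthl17-ps2 were listed at 0 in each YAP colony library, while Alms1-ps1 had 0.941 to 1.12 FPKM in YAP colonies, 0.695 to 1.15 FPKM in YAP-culture iPSCs and 1.01 to 1.22 FPKM in control iPSCs.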

How the data were processed

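RNA from 9 libraries in 3 groups was measured by mRNA sequencing. Per the submitters' processing notes, TopHat, Cufflinks and the mm10 build were used, without versions. Values are FPKM per gene as deposited by the authors, used without rescaling, and read depth is unknown.

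The 13808 rows whose mean over the 9 libraries reached 1 FPKM were fitted as log2(FPKM + 1) with limma 3.58.1 in R 4.3.3 (3 group means, trended prior), with Benjamini-Hochberg adjustment over all of them. A row was called at an adjusted p below 0.05 with a log2 change of at least 1. Ratios of member to parent were compared by exact two-sided permutation over 3 against 3 libraries. The pairs were named for large differences of that ratio, so these p-values test nothing. The fit was also run on simulated data with independent noise and changes added only to higher rows. That run does not cover members near 1 FPKM or reads shared between rows.

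Members and lists were chosen with earlier results of these data known. Named by rule were the 6 highest members, in each comparison up to 6 called members per direction with the largest change and no overlap between groups, those called opposite to the parent, the 6 with the largest differences of the ratio to the parent against each iPSC group, and 3 rows on either side of the threshold. Other members named were chosen after their values were seen. Sequences come from GENCODE M21 transcripts (GRCm38), aligned with blastn 2.17.0 (e-value 1e-05) and compared by 50-base stretches. Alternatives covered the pseudocount, filter, scaling, samples fitted, replicate block, fold threshold and each library left out.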

Additional observations from a re-analysis of the deposited data

How the results depend on the processing

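FPKM keep no read depth, so counting error is unknown. Median-ratio scaling moved no count by 1.5 times or more. With a pseudocount of 5, 5 members rose and 15 fell in YAP colonies against YAP-culture iPSCs (9 with the parent, 2108 of all rows called), 4 rose and 20 fell against control iPSCs (13 with the parent, 2259 of all rows), and 0 rose and 0 fell between the iPSC groups (limma; 0 with the parent, 57 of all rows). With a minimum of 5 FPKM, 9 rose and 18 fell against YAP-culture iPSCs (2421 of all rows), 5 rose and 21 fell against control iPSCs (2599 of all rows), and 1 rose between the iPSC groups (114 of all rows). Without the fold threshold, 51 rose and 77 fell against YAP-culture iPSCs (49 with the parent, 8203 of all rows), 44 rose and 91 fell against control iPSCs (62 with the parent, 8452 of all rows), and 6 fell between the iPSC groups (629 of all rows). Quantile normalization gave 22 lower against control iPSCs (4240 of all rows called) and 9 higher between the iPSC groups (273 of all rows called). Between the iPSC groups, a pseudocount of 0.1 gave 1 higher and 0 lower (0 with the parent, 236 of all rows), and no filter 0 higher (141 of all rows). The compared groups alone gave 1 higher and 0 lower there (0 with the parent, 36 of all rows). The minimum leaves fewer rows to call and the dropped threshold admits smaller changes, and why the other counts moved was not tested.

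With 1 library left out, members that rose against YAP-culture iPSCs numbered 12 to 24, those that fell 33 to 37, pairs called the same way 16 to 18 and all rows called 4072 to 4421. Against control iPSCs these were 9 to 11, 33 to 36, 19 to 22 and 4225 to 4421, and between the iPSC groups 0 to 3, 0 to 26, 0 to 13 and 52 to 1048. Replicate 3 of both iPSC groups was also left out, a choice made after seeing the data. Then 25 rose against YAP-culture iPSCs (4431 of all rows called), and 26 fell between the iPSC groups (10 with the parent, 1042 of all rows). Samples with the same replicate number did not deviate together (r of -0.14 to 0.19), and a replicate block gave 1 member higher between the iPSC groups in place of 2 and changed no other count of members. The change of Rpl28-ps3 against YAP-culture iPSCs ranged from -0.0017 (without replicate 2 of that group) to 0.49 with 1 library left out, and that of Rpl32 against control iPSCs from -0.11 (without replicate 1 of the YAP colonies) to 0.79; neither row was called.

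The differences of the log2 ratio to the parent depended on the pseudocount. With 0.1 they were -9.11 and -9.62 for Rpl28-ps1 against YAP-culture and control iPSCs, -9.03 and -9.37 for Rpl28-ps3, 4.06 and 4.21 for Gstm2-ps1, and 2.37 for Pisd-ps1 and -2.78 for Rpl31-ps15 against YAP-culture iPSCs. With 5 they were -3.61 and -4.11 for Rpl28-ps1, -3.56 and -3.85 for Rpl28-ps3, 1.99 and 2.10 for Gstm2-ps1, 1.80 and 1.61 for Pisd-ps1, -1.41 for Rpl31-ps15 against YAP-culture iPSCs and 1.51 for Ccnb2-ps against control iPSCs. With 1 library left out every one of these ratio differences kept its sign. Among rows named by the rule and their parents, calls lost against YAP-culture iPSCs with a pseudocount of 5 were those of Ccdc50-ps, Cox20-ps, H3f3a-ps1, Pisd-ps1, Pisd, Rpl31-ps15, Rpl31 and Zfp422-ps, and against control iPSCs those of Crry-ps and H3f3a-ps1.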
